A study of Mus musculus with 60 samples.

Results

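TRAV9 is a small family of variable (V) segments of the mouse T cell receptor alpha chain, called V alpha 3 in the older nomenclature. The members described here are TRAV9-1, TRAV9-2 and TRAV9-4, which make up 3 of the 109 TRAV segments named in the TCR alpha (TCRA) tables and 3 of the 138 V segments of the whole series. They were chosen by name, as every row of the CD4 and CD8 TCRA tables whose V segment was one of the 3, in all 15 libraries of each table. Usage of a segment is the summed frequency of its clonotypes as a percentage of all frequency listed for the library, a clonotype being defined by its CDR3 in amino acids together with the V and J segments.

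The study asked how loss of STAT3 and of PD-1 in donor T cells shapes the TCR repertoire in graft-versus-host disease. Donors were C57BL/6 mice that were wild type (WT), Stat3 fl/fl with CD4-Cre (STAT3ko), or Stat3 fl/fl with CD4-Cre and germline PD-1-/- (STAT3koPD-1ko). CD4-Cre acts in developing thymocytes before the CD4 and CD8 lineages part, so both lineages carry the deletion. Lethally irradiated WT BALB/c recipients received their CD90.2+ T cells together with WT C57BL/6 bone marrow from which T cells had been depleted. On day 6 after this hematopoietic cell transplantation (HCT), donor-type H-2Kb+ TCRβ+ CD4+ and CD8+ cells were sorted from liver and gut, each sample being a pool of 3 recipients. Each table held 2 numbered libraries per genotype and tissue, and 1 spleen library per genotype that is labelled as taken before HCT. Ages are not given in the sources used here, and the tables hold TCR transcripts alone, so that CD4 and CD8 labels could not be checked against other transcripts.

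An alpha chain is made when a V segment is joined to 1 of many J segments in a thymocyte. Part of the V segment (its CDR1 and CDR2 loops) lies over the major histocompatibility complex (MHC) molecule, while CDR3, the joint itself, lies mainly over the peptide. CD4 T cells recognise MHC class II and CD8 T cells MHC class I, and V alpha 3 has been studied in mice as a family used unequally by the 2 lineages. In C57BL/6 mice a stretch of the alpha locus is present in several copies, and segments of the extra copies carry D or N in their names. TRAV9D-1, TRAV9D-2, TRAV9D-3, TRAV9N-1, TRAV9N-3 and TRAV9N-4 are the 6 other TRAV9 segments in the tables.

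In mm10 (GENCODE M21) each member has 2 exons on the plus strand of chromosome 14. TRAV9-1 lies at chr14:53488045-53488567, TRAV9-2 at chr14:53590857-53591514 and TRAV9-4 at chr14:53676141-53676630. They end 666 kb, 563 kb and 478 kb from the first annotated J segment, so that TRAV9-4 is the nearest to the J segments. The last 60 coding bases of the second exon follow for the members, for TRAV9D-1, the near-copy of TRAV9-1, and for TRAV9N-3, a copy that was used more in CD8 cells. Capitals mark the bases that enter CDR3, from the codon of its first cysteine.
TRAV9-1 (chr14:53488508-53488567): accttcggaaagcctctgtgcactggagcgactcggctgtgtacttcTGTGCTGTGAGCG
TRAV9D-1 (chr14:52792718-52792777): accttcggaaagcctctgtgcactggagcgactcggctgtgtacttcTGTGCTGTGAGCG
TRAV9-2 (chr14:53591455-53591514): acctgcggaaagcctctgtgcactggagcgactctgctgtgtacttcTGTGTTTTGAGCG
TRAV9-4 (chr14:53676571-53676630): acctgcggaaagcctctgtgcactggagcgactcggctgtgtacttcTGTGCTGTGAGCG
TRAV9N-3 (chr14:53232043-53232102): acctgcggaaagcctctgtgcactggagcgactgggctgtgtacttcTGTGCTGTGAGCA
TRAV9-1 and TRAV9-4 thus contribute the same 13 germline bases to CDR3, and TRAV9-2 is the member whose CDR3 start differs.

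Over the last 280 coding bases TRAV9-1 stood apart from the other members, with 48 mismatches to TRAV9-2 and 47 to TRAV9-4. TRAV9-2 and TRAV9-4 differed from each other at 8 of these bases. TRAV9-1 and TRAV9D-1 differed at 2 bases, TRAV9-2 and TRAV9D-2 at 5, and TRAV9-4 and TRAV9N-4 at 10. The split of reads between TRAV9-1 and TRAV9D-1 is therefore uncertain. TRAV9N-4 shares its number with TRAV9-4, but TRAV9-4 was closer to TRAV9D-2, at 6 mismatches, and to TRAV9D-3 and TRAV9N-3, at 8. Where D and N copies are added to a member below, they are matched by name. TRAV9D-3 and TRAV9N-3 did not differ at any of the 280 bases. The full germline CDR3 start they share opened 69.2% of the CD8 clonotypes named TRAV9N-3 and 0% of those named TRAV9D-3, so the division between these 2 names is also uncertain.

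For TRAV9-2 the deposited position at which the V segment ends inside CDR3 was 3 or less in 100% of the CD4 clonotypes and 99.8% of the CD8 clonotypes, against 3.12% and 3.20% over all TRAV segments. The deposited CDR3 nucleotides nevertheless opened with the first 9 germline bases of the mm10 gene in 89.8% of the CD4 clonotypes and 89.7% of the CD8 clonotypes named TRAV9-2. Whether this V end touched the usage of TRAV9-2 was not tested.

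The libraries listed between 6748 and 27874 clonotypes, and these held between 79.5% and 99.1% of a library's reads, because a clonotype seen in a single library was dropped when the libraries were joined. Read counts are not given, so depth is unknown. The share listed was lowest in gut replicate 2, at 82.8% ± 1.07 (SD, n = 3) in CD4 and 79.8% ± 0.302 in CD8 cells. The spleen libraries stood close to liver replicate 1 of their own genotype: within the members' usage, the overlap (for each clonotype the lower of its frequencies, added up) was 50.0% ± 4.28 (SD, n = 3) in CD4 and 46.6% ± 4.94 in CD8 cells, against 16.3% ± 2.74 and 9.13% ± 1.78 (n = 6) for other genotypes. Liver replicate 2 gave 18.8% ± 2.04 and 10.2% ± 2.71 with the spleen library of its genotype. Whether the spleen libraries or liver replicate 1 depart from their labels was not tested. The main differences between lineages, tissues and genotypes are therefore also given without liver replicate 1. Gut replicate 1 shared 27.4% ± 6.38 and 23.0% ± 4.80 with the spleen library of its genotype, against 19.9% ± 2.04 and 12.8% ± 1.39 for other genotypes.

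The members were segments of modest usage, and each had its own balance between the lineages. TRAV9-1 was a segment of CD4 cells, at 0.625% ± 0.134 (SD, n = 15) in CD4 against 0.174% ± 0.0392 in CD8 cells. TRAV9-4 was also higher in CD4 cells, at 0.455% ± 0.157 against 0.292% ± 0.0461. TRAV9-2 had the most similar means, at 0.575% ± 0.209 in CD4 and 0.665% ± 0.262 in CD8 cells. In order of mean usage among the 109 segments, TRAV9-1, TRAV9-2 and TRAV9-4 stood at places 42, 43 and 50 in CD4 cells and at places 70, 33 and 58 in CD8 cells. The CD4 means of TRAV9-1 and TRAV9-2 differed by less than the SD of either.

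TRAV9-1 usage ran in the spleen from 0.548% in WT and 0.620% in STAT3ko to 0.821% in STAT3koPD-1ko CD4 cells. The spleen CD8 libraries held 0.175%, 0.165% and 0.211% in the same order of genotypes. In liver the lowest, median and highest of 6 libraries were 0.527%, 0.645% and 0.712% in CD4 cells and 0.118%, 0.187% and 0.253% in CD8 cells. Liver CD4 and CD8 libraries did not overlap. In gut the same 3 values were 0.278%, 0.613% and 0.802% in CD4 cells and 0.0915%, 0.159% and 0.202% in CD8 cells. Every CD4 library of any tissue lay above every CD8 library, which 23.9% of the 109 segments did in one direction or the other.

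For TRAV9-2 the spleen libraries held 0.766%, 0.554% and 0.856% in WT, STAT3ko and STAT3koPD-1ko CD4 cells and 1.26%, 0.698% and 1.03% in CD8 cells. The lowest, median and highest values in liver were 0.511%, 0.671% and 0.826% in CD4 cells, and 0.537%, 0.709% and 0.901% in CD8 cells. The liver groups of the 2 lineages overlapped almost fully. In gut they were 0.214%, 0.377% and 0.702% in CD4 cells and 0.286%, 0.442% and 0.583% in CD8 cells. All 3 gut libraries numbered 2 were the lowest in each lineage.

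The spleen values of TRAV9-4 were 0.396%, 0.355% and 0.694% in WT, STAT3ko and STAT3koPD-1ko CD4 cells and 0.290%, 0.311% and 0.294% in CD8 cells. In liver the lowest, median and highest were 0.427%, 0.521% and 0.659% in CD4 cells and 0.247%, 0.271% and 0.403% in CD8 cells. The lineages did not overlap in spleen or liver, which held for 55% of the 109 segments in spleen and 41.3% in liver. In gut they did, with 0.107%, 0.382% and 0.545% in CD4 cells and 0.194%, 0.299% and 0.339% in CD8 cells.

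**Figure D1:**
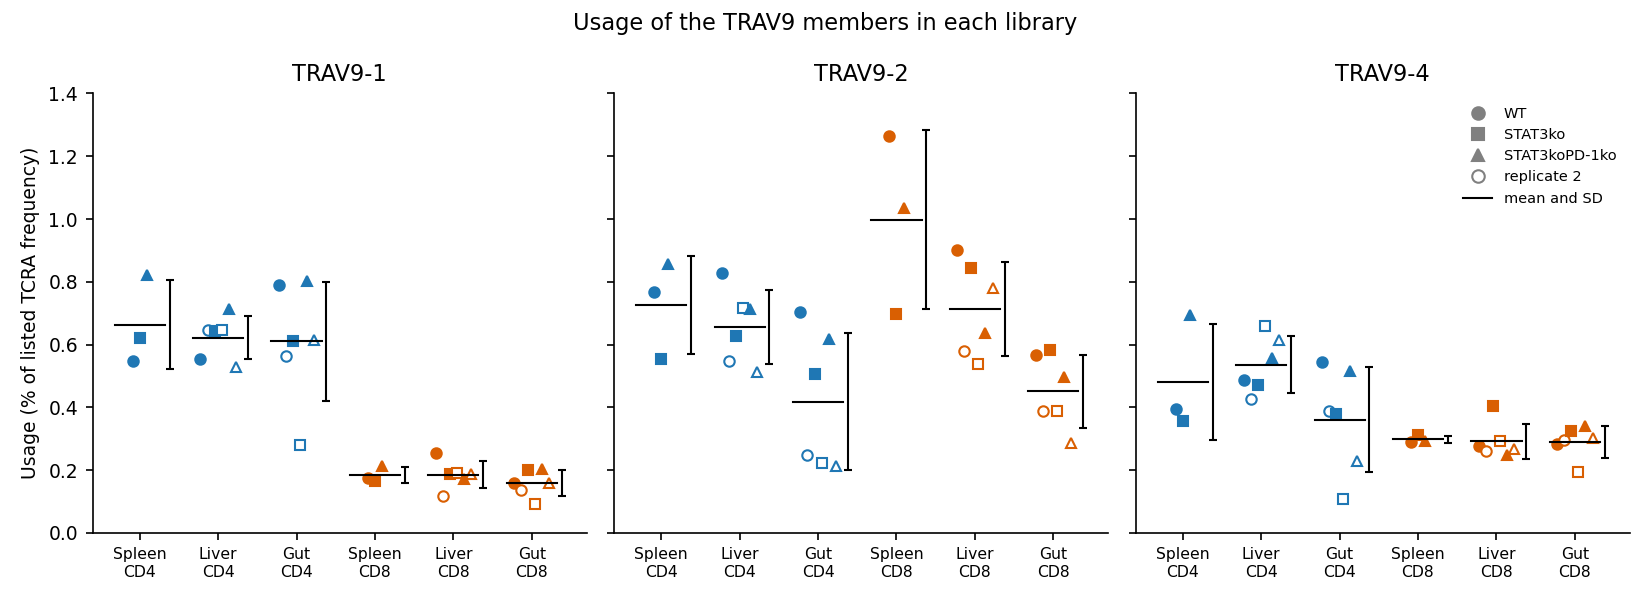
Usage of TRAV9-1, TRAV9-2 and TRAV9-4 (vertical axis, percent of listed TCRA frequency) in each library, by tissue and lineage, with CD4 in blue, CD8 in orange, symbol shape for the donor genotype, open symbols for replicate 2, black lines for the mean and bars for the SD (n = 3 in spleen, 6 in liver and gut). All 15 CD4 values of TRAV9-1 lie above all 15 CD8 values, while the lineages overlap for TRAV9-2.

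The first comparison asked whether the members differ between CD4 and CD8 cells. It was tested with limma on log2(usage % + 0.1) over all 30 TCRA libraries, as the mean of the differences in the 3 tissues, with Benjamini-Hochberg adjustment over the segments tested. This scale understates the change of rare segments, and lists were made per table, so that a clonotype of a single library is missing from either. TRAV9-1 was lower in CD8 cells by a log2 change of -1.40 (SE 0.10, limma adjusted p = 5.18e-12), with CD4 above CD8 in 15 of 15 pairs of libraries that share genotype, tissue and number. TRAV9-4 was lower in CD8 cells by -0.45 (SE 0.13, limma adjusted p = 0.00396), with CD4 above CD8 in 13 of 15 pairs. TRAV9-2 was not called, at +0.22 (SE 0.13, limma adjusted p = 0.111), with CD8 above CD4 in 11 of 15 pairs. TRAV9-2 was tested among the 45 segments whose usage averaged 0.5% or more, and the other members, which did not reach this mean, among all 109 segments.

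Such differences were the rule among TRAV segments. Of the 45 segments 91.1% passed the same test (11 higher and 30 lower in CD8 cells), and of all 109 segments 66.1% (24 higher and 48 lower). The call of 2 of the 3 members is thus close to the background. The median log2 change was -0.53 over the 45 segments and -0.15 over the 109. TRAV9-1 was the 7th most CD4-biased of the 109 segments, and TRAV9-4 the 33rd.

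The subsets by replicate number hold liver and gut only, so that their means are over 2 tissues and leave out spleen. In the liver and gut libraries numbered 1 the difference of TRAV9-2 was -0.0031 (limma adjusted p = 0.974), and in those numbered 2 +0.27 (limma adjusted p = 0.0439), and with its D and N copies added it passed as well, at +0.37 (limma adjusted p = 0.00871). With a replicate block over all libraries TRAV9-2 was again at +0.22 and passed (limma adjusted p = 0.0185), but no label says that libraries of 1 number share a pool. Without liver replicate 1 the change was -1.42 for TRAV9-1, +0.22 for TRAV9-2 and -0.49 for TRAV9-4, with the same calls. For TRAV9-4 the call was lost when each clonotype counted once, at -0.12 (limma adjusted p = 0.101), when its D and N copies were added, at -0.18 (limma adjusted p = 0.285), and in the liver and gut libraries numbered 2, where spleen is left out too, at -0.33 (limma adjusted p = 0.215).

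TRAV9-1 kept this difference in each tissue, at -1.41 (SE 0.22) in spleen, -1.35 (SE 0.15) in liver and -1.42 (SE 0.15) in gut, with limma adjusted p = 5.95e-06, 2.91e-08 and 1.74e-08. At this call 53.2%, 56% and 53.2% of all 109 segments passed in spleen, liver and gut. TRAV9-4 passed in liver, at -0.70 (SE 0.20, limma adjusted p = 0.00348), but not with each clonotype counted once, at -0.19 (limma adjusted p = 0.0845), or with its D and N copies added, at -0.40 (limma adjusted p = 0.132). Without liver replicate 1 it passed at -0.82 (limma adjusted p = 0.0321). TRAV9-4 had -0.50 in spleen (limma adjusted p = 0.146) and -0.15 in gut (limma adjusted p = 0.565). In gut the difference of TRAV9-4 was -0.47 in the libraries numbered 1 (limma adjusted p = 0.0458) and +0.17 in those numbered 2 (limma adjusted p = 0.707), with opposite signs. TRAV9-2 had +0.40, +0.10 and +0.17 in the 3 tissues (limma adjusted p = 0.187, 0.642 and 0.435), where 80%, 86.7% and 80% of the 45 segments passed. With a replicate block its spleen difference passed (limma adjusted p = 0.0465) and the others did not. Its gut difference likewise had opposite signs, at -0.12 in the libraries numbered 1 (limma adjusted p = 0.401) and +0.46 in those numbered 2 (limma adjusted p = 0.0210).

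The size of the difference was then compared between gut and liver. The gap of TRAV9-4 was smaller in gut by a log2 value of +0.55 (SE 0.28), which did not pass (limma adjusted p = 0.521). It was +0.11 in the libraries numbered 1 and +0.99 in those numbered 2 (limma adjusted p = 0.923 and 0.298). For TRAV9-1 the gut and liver gaps differed by -0.07 and for TRAV9-2 by +0.07 (limma adjusted p = 0.992 and 0.835). Of the 109 segments 0% passed this limma test (10 had an unadjusted p below 0.05), and of the 45 segments 2.22%.

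The 6 D and N copies gave the wider picture of the family. TRAV9D-1, the near-copy of TRAV9-1, was also lower in CD8 cells, at 0.167% on average in CD4 and 0.0621% in CD8 cells (log2 change -0.72, limma adjusted p = 6.38e-08). TRAV9D-3 and TRAV9N-3 were the CD8 segments of the family, at 0.0216% and 0.0636% in CD4 against 0.273% and 0.402% in CD8 cells (log2 change +1.62 and +1.56, limma adjusted p = 3.85e-17 and 1.43e-13). TRAV9D-2 was also higher in CD8 cells, at 0.143% against 0.0545% (+0.66, limma adjusted p = 3.04e-09). TRAV9N-4 stood at 0.328% and 0.357% (+0.13, limma adjusted p = 0.442) and TRAV9N-1, annotated as a pseudogene, at 0.00423% and 0.00386%. Over all 9 copies 3 were higher and 3 lower in CD8 cells, and 3 did not pass.

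The copies thus spread over most of the range of the 109 segments, TRAV9D-3 being the 4th most CD8-biased. Summed over the 9 copies, TRAV9 took 2.29% of CD4 and 2.37% of CD8 usage, with CD8 above CD4 in 9 of 15 pairs. Summed over the 3 members it took 1.65% ± 0.442 (SD, n = 15) of CD4 and 1.13% ± 0.298 of CD8 usage. These sums are given as a description, without a test.

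**Figure D2:**
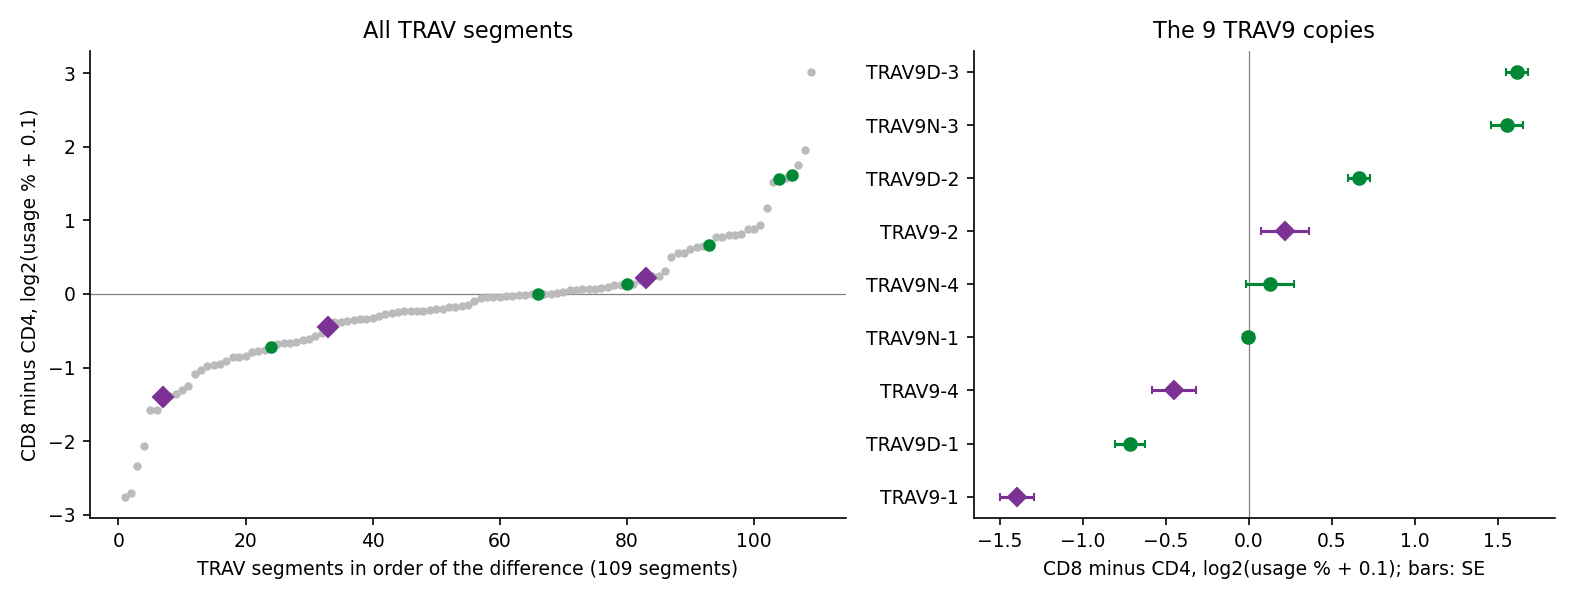
CD8 minus CD4 difference of log2(usage % + 0.1), the mean of 3 tissues, for all 109 TRAV segments in order (left) and for the 9 TRAV9 copies with the SE of the fit (right), with the 3 members as purple diamonds and the D and N copies as green circles. The copies run from -1.40 for TRAV9-1 to +1.62 for TRAV9D-3.

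Other families of the duplicated stretch were set beside TRAV9, with all 109 segments tested. Of 8 TRAV14 segments (V alpha 2) 7 were lower and 1 higher in CD8 cells, with a median log2 change of -1.71, and TRAV14N-3 stood at 4.91% ± 0.556 in CD4 and 0.663% ± 0.114 in CD8 cells. Of 9 TRAV4 segments (V alpha 11) 7 were lower and 2 did not pass, with a median of -0.32, and the examples ran from TRAV4N-4 at 2.02% ± 0.315 and 0.720% ± 0.115 (log2 change -1.31) to TRAV4N-3 at 0.382% ± 0.132 and 0.343% ± 0.129 (-0.18, not passed). Of 9 TRAV12 segments (V alpha 8) 5 were higher and 3 lower, with a median of +0.65, and the most used, TRAV12N-3, stood at 1.83% ± 0.371 and 7.41% ± 0.702. The median of the 9 TRAV9 copies was +0.13, beside -0.15 for all segments.

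Outside the family, the segments whose usage most resembled the summed usage of the 3 members over the 30 libraries were TRAV5-1, TRAV13D-2 and TRAV6-5. Pearson's r of log2(usage % + 0.1) was 0.78, 0.74 and 0.69, the highest of 44 segments, and within the 15 CD4 libraries it was 0.82, 0.77 and 0.61. Within the 15 CD8 libraries it was lower, at 0.59, 0.53 and 0.37. These libraries share clonotypes, and the usages of a library sum to 1 total, so the values are a description.

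The tissues were compared next, within each lineage. TRAV9-2 was lower in gut than in liver in CD8 cells, at 0.451% ± 0.117 (SD, n = 6) against 0.713% ± 0.149, a log2 change of -0.57 (SE 0.15, limma adjusted p = 0.0305). Of the 41 segments tested 12.2% passed, and in the fit of all 109 segments, which holds every member, TRAV9-2 did not (limma adjusted p = 0.118). In CD4 cells it stood at 0.418% ± 0.217 in gut and 0.657% ± 0.118 in liver, a change of -0.64 (SE 0.22, limma adjusted p = 0.0591), where 15.2% of 46 segments passed, and with all 109 segments limma adjusted p = 0.208. With a replicate block this CD4 change passed (limma adjusted p = 0.00464), but no label says that libraries of 1 number share a pool. TRAV9-1 and TRAV9-4 had changes of -0.07 and -0.55 in CD4 cells (limma adjusted p = 0.794 and 0.226) and of -0.14 and -0.01 in CD8 cells (limma adjusted p = 0.722 and 1.00). In their CD8 fit of all 109 segments 3.67% passed.

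TRAV9-2 usage in gut differed by replicate number. In CD4 cells gut replicate 1 held 0.608% ± 0.0985 (SD, n = 3) and gut replicate 2 0.228% ± 0.0183, beside 0.723% ± 0.0994 and 0.592% ± 0.110 in the liver libraries of the same numbers. In CD8 cells the gut means were 0.548% ± 0.0463 and 0.354% ± 0.0592 and the liver means 0.794% ± 0.138 and 0.632% ± 0.131. Among libraries numbered 1 the change from liver to gut was -0.22 in CD4 (limma adjusted p = 0.417) and -0.45 in CD8 cells (limma adjusted p = 0.0566), and among those numbered 2 it was -1.06 (limma adjusted p = 5.43e-06) and -0.68 (limma adjusted p = 0.0119).

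The number of TRAV9-2 clonotypes listed was lower too, between 341 and 491 in gut replicate 1 and between 61 and 175 in gut replicate 2 of CD4 cells, and between 360 and 397 and between 137 and 212 in CD8 cells. As a share of the clonotypes of a library they were 1.73% ± 0.182 and 1.06% ± 0.242 in CD4 cells. On this share the CD8 change between gut and liver was -0.24 (limma adjusted p = 0.131). The part of the lower listed share of gut replicate 2 in these values was not tested. Without liver replicate 1 the change was -0.51 in CD4 (limma adjusted p = 0.344) and -0.42 in CD8 cells (limma adjusted p = 0.286). In 7 of 12 fits that left out 1 library the CD8 change did not pass (limma adjusted p between 0.00867 and 0.0794, with changes from -0.66 to -0.47). These were each library of liver replicate 1 and of gut replicate 2, and STAT3koPD-1ko liver replicate 2.

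Against the spleen libraries labelled before HCT, TRAV9-2 was lower in gut in both lineages. The change was -0.76 in CD4 cells (SE 0.26, limma adjusted p = 0.0459) and -0.99 in CD8 cells (SE 0.20, limma adjusted p = 0.00104), where 27.7% of 47 and 12.2% of 41 segments passed. In the fit of all 109 segments the CD4 change did not pass (limma adjusted p = 0.108) and the CD8 change did (limma adjusted p = 0.0396). In these fits 13.8% and 1.83% of the segments passed. Without liver replicate 1 in the fit the CD4 change was again -0.76, with limma adjusted p = 0.0751, and the CD8 change -0.99, with limma adjusted p = 2.74e-05. The CD4 call was lost in 10 of 15 fits without 1 library (changes from -0.92 to -0.62), among them each spleen and each gut replicate 2 library. The CD8 call was lost in 1 of 15, without the WT spleen library, whose 1.26% was the highest TRAV9-2 value of all libraries (limma adjusted p = 0.0523). Counting each clonotype once the change of TRAV9-2 was -0.36 in CD4 and -0.29 in CD8 cells (limma adjusted p = 0.255 and 0.136). TRAV9-1 and TRAV9-4 did not pass between gut and spleen, at -0.14 and -0.39 in CD4 cells (limma adjusted p = 0.557 and 0.406). In CD8 cells they had -0.15 and -0.04 (limma adjusted p = 0.687 and 0.877). In liver no member passed against spleen in either lineage, and TRAV9-2 had -0.12 in CD4 and -0.42 in CD8 cells, or -0.25 and -0.56 without liver replicate 1 (limma adjusted p = 0.721 and 0.138). Of the segments averaging 0.5% or more, 0% passed there in CD4 (1 had an unadjusted p below 0.05 in limma) and 2.44% in CD8 cells. With 1 spleen library per genotype, and spleen alone before HCT, tissue and transplantation cannot be told apart. These comparisons also rest on the spleen labels, which leaving out liver replicate 1 does not check.

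No member passed a test between donor genotypes. On day 6 TRAV9-1 in CD4 cells was 0.638% ± 0.109 (SD, n = 4) in WT, 0.545% ± 0.179 in STAT3ko and 0.664% ± 0.119 in STAT3koPD-1ko. TRAV9-2 was 0.581% ± 0.249, 0.518% ± 0.215 and 0.514% ± 0.217 in the same order, and TRAV9-4 0.461% ± 0.0691, 0.404% ± 0.230 and 0.479% ± 0.172. In CD8 cells TRAV9-1 was 0.167% ± 0.0599, 0.167% ± 0.0504 and 0.180% ± 0.0190. TRAV9-2 was 0.609% ± 0.213, 0.588% ± 0.190 and 0.550% ± 0.211 in CD8 cells, and TRAV9-4 0.279% ± 0.0156, 0.303% ± 0.0864 and 0.288% ± 0.0405. The 3 genotypes overlapped for each member in each lineage.

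Over the 3 pairs of genotypes and 2 lineages, the 18 log2 changes of the members lay between -0.30 and +0.29, with the lowest limma adjusted p at 0.816 and none below 0.05 before adjustment. Of all segments averaging 0.5% or more, 0% passed in CD4 cells in any pair, and in CD8 cells 2.44% passed between STAT3koPD-1ko and STAT3ko and 0% in the other pairs (0 to 5 segments a comparison had an unadjusted p below 0.05 in limma). Among all 109 segments 0.917% passed between STAT3ko and WT in CD8 cells. The test of whether the CD8 to CD4 difference changes with genotype gave log2 values between -0.32 and +0.36 for the members (6 tests, lowest limma adjusted p = 0.914). Between STAT3koPD-1ko and STAT3ko 2.33% of the segments averaging 0.5% or more and 0.917% of all segments passed it. With 4 day 6 libraries per genotype and lineage the SEs of the 18 changes between genotypes lay between 0.15 and 0.32, which limits the size of a difference that these tests could detect. Without liver replicate 1 the 18 changes lay between -0.38 and +0.34, and none passed.

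**Figure D3:**
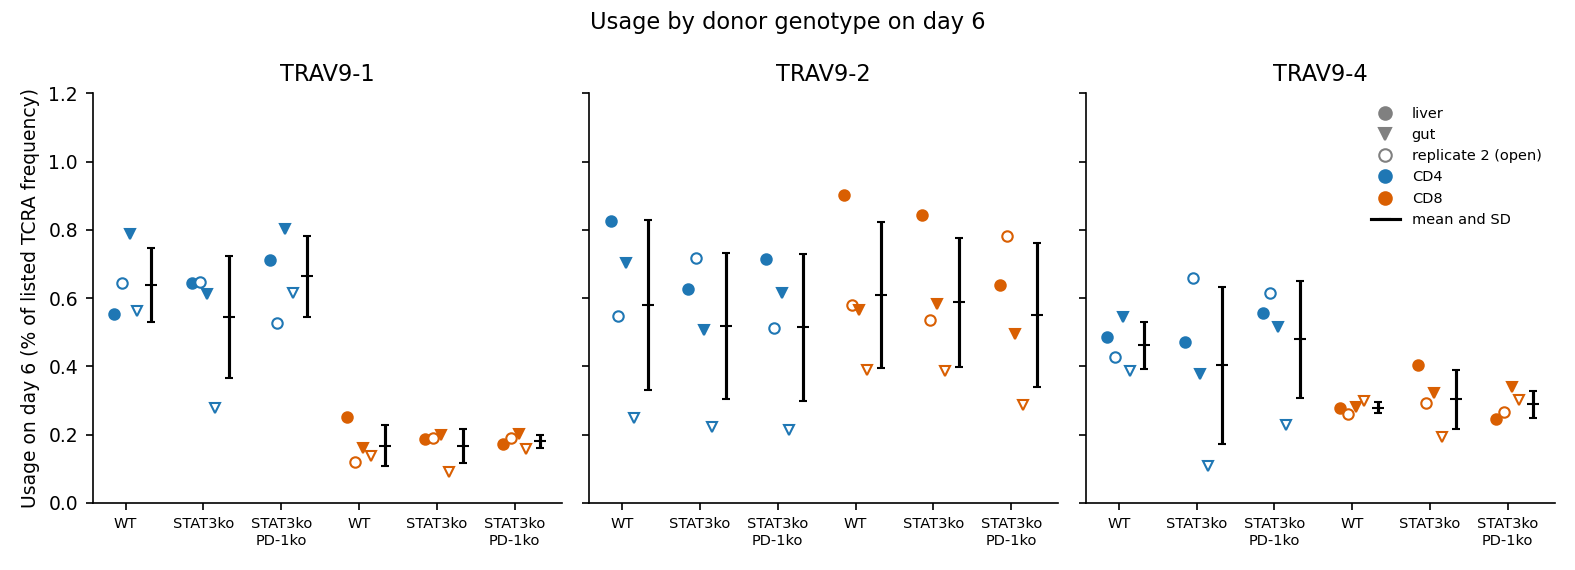
Usage of the 3 members on day 6 (vertical axis, percent of listed TCRA frequency) by donor genotype, with 4 libraries per genotype and lineage, circles for liver, triangles for gut, open symbols for replicate 2, CD4 in blue and CD8 in orange, and the mean and SD beside the points. The genotypes overlap for each member, and the lowest CD4 value of TRAV9-1 (0.278%) and of TRAV9-4 (0.107%) come from STAT3ko gut replicate 2.

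Behind these usages stood many small clonotypes. The tables listed 752 TRAV9-1, 1269 TRAV9-2 and 540 TRAV9-4 clonotypes in CD4 cells and 280, 1209 and 496 in CD8 cells. A CD4 library held 192 ± 71.3 (SD, n = 15) TRAV9-1, 258 ± 116 TRAV9-2 and 132 ± 55.2 TRAV9-4 clonotypes, and a CD8 library 57.8 ± 20.4, 249 ± 84.3 and 112 ± 38.3. The most frequent clonotype of TRAV9-1 took 8.42% ± 5.49 of the segment's usage in CD4 and 14.0% ± 4.78 in CD8 cells. For TRAV9-2 this was 6.95% ± 3.26 and 5.19% ± 2.46, and for TRAV9-4 10.9% ± 3.27 and 9.61% ± 4.29. In no library did 1 clonotype take more than 25.6% of a member's usage.

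The clonotypes of TRAV9-2 were often listed in both lineages. Of its clonotypes 344 stood in both tables, which is 27.1% of those of CD4 and 28.5% of those of CD8 cells. For TRAV9-4 the shared clonotypes were 43 (7.96% and 8.67%) and for TRAV9-1 18 (2.39% and 6.43%). Over all TRAV segments 12.2% and 12.8% were shared. Among the 66 segments with at least 200 clonotypes in each table TRAV9-2 held the 2nd highest share of CD4 and the 5th highest share of CD8 clonotypes, whereas the medians were 7.60% and 8.89%.

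In a CD8 library 17.8% ± 6.64 (SD, n = 15) of TRAV9-2 usage lay in clonotypes also listed in the CD4 library of the same genotype, tissue and number. With the CD4 library of another genotype it was 16.4% ± 6.09 (n = 30 pairs, which share libraries). Over all TRAV segments these shares were 14.1% ± 2.38 and 12.9% ± 2.80, within 1 SD of those of TRAV9-2. The corresponding values were 5.60% ± 4.83 and 4.55% ± 4.01 for TRAV9-4 and 1.98% ± 3.25 and 3.58% ± 5.61 for TRAV9-1.

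Few clonotypes of the members recurred in every library. In CD4 cells 8 of 752 TRAV9-1, 2 of 1269 TRAV9-2 and 9 of 540 TRAV9-4 clonotypes were listed in all 15 libraries. In CD8 cells these were 1 of 280, 2 of 1209 and 0 of 496. For all TRAV segments they were 774 of 62533 and 617 of 59365 clonotypes. In 12 or more libraries the members had 31, 11 and 26 clonotypes in CD4 and 3, 13 and 11 in CD8 cells. For all TRAV segments these were 2794 and 2375. Whether recurrence differs between the members was not tested. A member's clonotype was listed in a median of 2 or 3 of the 15 libraries.

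The CDR3 nucleotides of the clonotype with the highest mean frequency of each member and lineage follow, to show how far the germline V end reached into them. Capitals mark the run from the 5′ end that equals the germline V segment, and each sequence is the one deposited to represent the amino acid clonotype.
TRAV9-1 CD4, TRAJ39: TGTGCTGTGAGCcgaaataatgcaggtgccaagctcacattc
TRAV9-1 CD8, TRAJ15: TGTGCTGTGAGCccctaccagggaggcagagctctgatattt
TRAV9-2 CD4, TRAJ21: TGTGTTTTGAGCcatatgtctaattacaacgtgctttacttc
TRAV9-2 CD8, TRAJ31: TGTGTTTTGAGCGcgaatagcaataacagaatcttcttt
TRAV9-4 CD4, TRAJ43: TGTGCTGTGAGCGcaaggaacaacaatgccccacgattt
TRAV9-4 CD8, TRAJ22: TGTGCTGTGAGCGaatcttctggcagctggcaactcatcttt
All 6 kept 12 or 13 germline bases and were 13 or 14 amino acids long. The full 13 bases opened between 39.6% and 54.1% of the members' clonotypes.

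The leading TRAV9-4 clonotype of CD4 cells, with TRAJ43, was listed in 15 of 15 libraries at 0.0220% ± 0.0130 of a library and had its highest value, 0.0532%, in the STAT3ko spleen. In CD8 cells the same clonotype was listed in 7 libraries, at 0.00268% or less. The leading TRAV9-1 clonotype of CD8 cells, with TRAJ15, was also listed in all 15 libraries, at 0.0122% ± 0.00993, and was not listed in the CD4 table. The leading TRAV9-2 clonotype of CD8 cells, with TRAJ31, was listed in 13 CD8 libraries at a median of 0.00359% and in 15 CD4 libraries at a mean of 0.00646%. It was thus the 1 leading clonotype common to both lineages in nearly every library.

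The other leading clonotypes were not listed in the table of the opposite lineage. The TRAV9-1 clonotype of CD4 cells was listed in 13 libraries, had a median of 0.00372%, and reached 0.130% in STAT3koPD-1ko gut replicate 2. The TRAV9-2 clonotype of CD4 cells was listed in 4 libraries and reached 0.0601% in WT liver replicate 1. The TRAV9-4 clonotype of CD8 cells was listed in 12 libraries, at 0.00955% ± 0.0103.

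CDR3 length, weighted by frequency, differed between lineages for TRAV9-1. Its mean was 13.6 ± 0.140 amino acids (SD, n = 15) in CD4 and 14.1 ± 0.195 in CD8 cells, a difference of 0.562 with CD8 longer in 15 of 15 pairs (permutation test, two-sided, adjusted p = 0.00012 over 6 tests, from the smallest p that 100000 resamples can give). The longest CD4 mean, 13.8, lay just below the shortest CD8 mean. How many other segments pass this test, or do not overlap in length, was not computed. TRAV9-2 differed by 0.0495 and TRAV9-4 by 0.0900 (permutation test, adjusted p = 0.476 and 0.431). Over all TRAV clonotypes the mean lengths were 13.4 ± 0.0305 and 13.6 ± 0.0558. The differences of the 45 segments averaging 0.5% or more ranged from -0.729 to 0.463 with a median of -0.0407. None of these was as much longer in CD8 cells as TRAV9-1, while the largest shortening exceeded it in size. TRAV9-1 itself averaged less than 0.5% and was not among the 45, and the other segments below 0.5% were not compared in this way. The difference of TRAV9-1 was 0.554 without liver replicate 1, with the same adjusted p.

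J segments are numbered downwards along the locus, so a high TRAJ number is near the V segments. The mean TRAJ number, weighted by frequency, was 38.7 ± 1.36 (SD, n = 15) in CD4 and 36.4 ± 2.27 in CD8 cells for TRAV9-4. For TRAV9-2 it was 32.1 ± 1.71 and 29.7 ± 0.840, and for TRAV9-1 29.2 ± 1.75 and 28.6 ± 2.25. The members were thus ordered as they lie on the chromosome, the one nearest to the J segments having the highest number. In CD8 cells the means of TRAV9-2 and TRAV9-1 differed by less than the SD of TRAV9-1, but by more than that of TRAV9-2.

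The number was lower in CD8 cells by -2.46 for TRAV9-2 (permutation test, two-sided, adjusted p = 0.00018) and by -2.37 for TRAV9-4 (permutation test, two-sided, adjusted p = 0.00272), in 12 and 11 of 15 pairs. For TRAV9-1 the difference was -0.645 (permutation test, adjusted p = 0.472). Over all TRAV clonotypes the number was 29.8 ± 1.12 in CD4 and 28.6 ± 0.823 in CD8 cells. Of the 45 segments 35 were lower in CD8 cells, with a median of -1.11, and 10 had a difference at or below that of TRAV9-2. The direction of the members is therefore that of most segments. How many segments pass this permutation test was not computed. The differences of TRAV9-2 and TRAV9-4 were -2.39 and -2.72 without liver replicate 1, and -1.89 and -1.01 with each clonotype counted once (permutation test, adjusted p = 6e-05 and 0.0102), with the same calls.

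**Figure D4:**
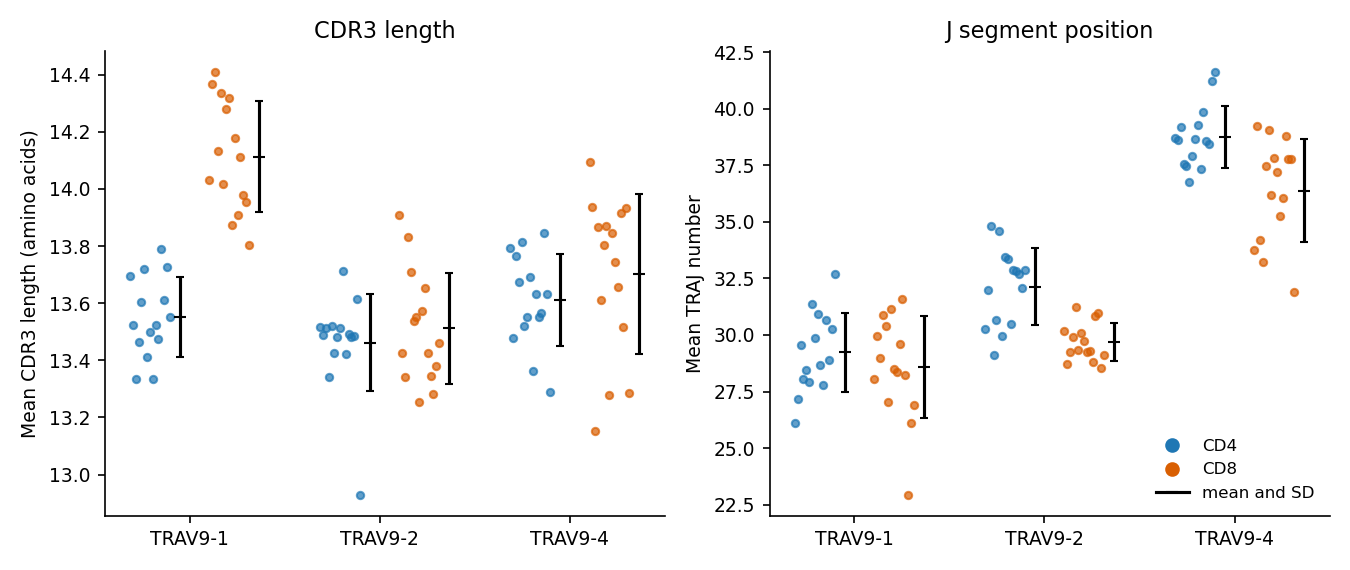
Mean CDR3 length in amino acids (left) and mean TRAJ number (right) of the clonotypes of each member, weighted by frequency, 1 point per library (15 CD4 in blue, 15 CD8 in orange) with the mean and SD beside them (axes do not start at 0). The CD8 lengths of TRAV9-1 lie above its CD4 lengths, and TRAV9-4 has the highest TRAJ numbers.

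TRAV9-4 in CD4 cells was joined to TRAJ31 in 12.4% ± 3.92 (SD, n = 15) of its usage, to TRAJ37 in 11.2% ± 6.40 and to TRAJ43 in 10.1% ± 3.13. In CD8 cells TRAJ43 led, at 7.48% ± 4.94, followed by TRAJ34 and TRAJ27, and TRAJ31 and TRAJ37 stood at 4.29% ± 3.28 and 2.56% ± 2.03. Over all TRAV segments TRAJ43 took 2.50% of CD4 and 1.73% of CD8 usage. TRAJ31 took 7.18% and 4.27% and TRAJ37 5.47% and 3.43% over all TRAV segments, so both were lower in CD8 cells there too.

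TRAV9-2 was joined most to TRAJ31 in both lineages, at 12.3% ± 3.91 in CD4 and 11.1% ± 3.76 in CD8 cells, where all TRAV segments had 7.18% and 4.27%. Its next J segments were TRAJ37 and TRAJ27 in CD4 and TRAJ26, at 10.4% ± 3.03, and TRAJ22, at 7.95% ± 4.66, in CD8 cells. TRAJ26 took 4.84% ± 4.75 of its CD4 usage. Over all TRAV segments TRAJ26 took 3.30% of CD4 and 5.96% of CD8 usage. The CD8 share of TRAJ22 over all TRAV segments, 9.09%, was above that within TRAV9-2. TRAV9-1 in CD4 cells was joined most to TRAJ34 (8.87% ± 6.00), TRAJ27 (8.76% ± 3.20) and TRAJ31 (7.58% ± 4.19). In CD8 cells, where fewer clonotypes carried it, TRAJ15 (9.91% ± 6.13), TRAJ23 (8.51% ± 8.20) and TRAJ33 (6.40% ± 6.33) led. All TRAV segments had 3.15%, 4.85% and 2.69% for these in CD8 cells. These TRAV9-1 shares varied widely over the CD8 libraries, TRAJ23 between 0.741% and 25.8% and TRAJ33 between 0% and 20.7%.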

How the data were processed

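The authors amplified TCR transcripts with a template-switching kit, called clonotypes with MiXCR and joined the libraries with VDJtools (mm10 in the submitters' processing notes). The deposited values are fractions of the reads of a library, formed before the join, which kept clonotypes found in at least 2 of 18 libraries, of which 15 are analysed here. The deposited V end within CDR3 was used as a description. Fractions were summed per V segment and divided by the listed total. Usage was tested with limma 3.58.1 (R 4.3.3) on log2(usage % + 0.1), with tissue and genotype in the fit, for segments averaging 0.5% or more. Members below that mean are reported from the fit of all 109 segments. CDR3 length and TRAJ number were compared by permutation (SciPy 1.17.1). Germline sequences were read from mm10 at GENCODE M21 exons. P-values measure the spread between libraries, since the numbered libraries are pools. Whether the numbers follow the 2 batches of mice in the methods is not given in the sources used here.

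The named segments were the 3 members, the other TRAV9 copies, up to 4 examples of the TRAV4, TRAV12 and TRAV14 lists, the 3 segments most like the members, and the leading clonotype and 3 leading J segments per member and lineage. The members, lists and tests were chosen with earlier results of these data known. Alternatives covered the pseudocount, filters, the denominator, left-out libraries, replicate numbers and a replicate block.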

Additional observations from a re-analysis of the deposited data

Results flagged for a closer look

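In the STAT3ko day 6 CD4 libraries, the TRAV9-1 usage of gut replicate 2 was 0.278%, far below the other 3 libraries of that group, the nearest of which was at 0.612%. Its CD8 counterpart, STAT3ko gut replicate 2, held 0.0915% TRAV9-1, and the nearest of the other 3 STAT3ko libraries 0.186%. The same pair of libraries also held the lowest TRAV9-4 usage of their lineage, at 0.107% in CD4 and 0.194% in CD8 cells, which did not stand apart by the same criterion. Among the 6 CD8 liver libraries, STAT3ko liver replicate 1 had a TRAV9-4 usage of 0.403%, above the next at 0.294%. The criterion was a gap, relative to the range of the group, beyond Dixon's 95% limit, applied to 30 groups of 4 or 6 libraries. Chance marks about 1 group in 20.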

How the results depend on the processing

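Of 697 values from alternatives over 63 results, 27 changed a call, and 54 that passed in neither fit changed sign. No called value changed sign. The difference of TRAV9-1 between CD8 and CD4 cells passed in all 12 alternatives, from -1.79 with a pseudocount of 0.01 to -0.47 with a pseudocount of 1. The causes of the following changes were not tested. With D and N copies added, CD8 minus CD4 was 0.37 for TRAV9-2 (adjusted p = 0.00871) and -0.18 for TRAV9-4 (0.285), TRAV9-4 in liver was -0.40 (0.132), and TRAV9-2 in CD4 cells was -0.74 (0.0504) between gut and spleen. Counting each clonotype once, TRAV9-4 was -0.12 (0.101), and -0.19 (0.0845) in liver. On that scale TRAV9-2 was -0.24 (0.131) between gut and liver in CD8 cells, and -0.36 (0.255) in CD4 and -0.29 (0.136) in CD8 cells between gut and spleen. Among libraries numbered 2, which hold liver and gut but no spleen, CD8 minus CD4 was 0.27 for TRAV9-2 (0.0439), 0.46 for TRAV9-2 in gut (0.0210) and -0.33 for TRAV9-4 (0.215), and TRAV9-2 in CD4 cells was -1.06 (5.43e-06) between gut and liver. Among liver and gut libraries numbered 1, an alternative chosen after seeing the data like the filter at 0.1%, TRAV9-4 in gut was -0.47 (0.0458) and TRAV9-2 in CD8 cells -0.45 (0.0566) between gut and liver. Undivided by the listed share, TRAV9-2 in CD4 cells was -0.73 (0.0452) between gut and liver. For TRAV9-2 between gut and liver in CD8 cells the change was -0.57 with all segments tested (0.118) and with the filter at 0.1% (0.104), -0.51 for clonotypes in at least 3 libraries (0.0733) and -0.42 without liver replicate 1 (0.286). Between gut and spleen in CD4 cells it was -0.76 with all segments (0.108), with the filter at 0.1% (0.0682) and without liver replicate 1 (0.0751), and -0.78 for clonotypes in at least 3 libraries (0.0585). Leaving out 1 library at a time changed 24 of 1242 calls. CD8 minus CD4 of TRAV9-2 ran from 0.18 to 0.28 and passed without CD4 gut replicate 1 of WT or of STAT3koPD-1ko. TRAV9-2 between gut and liver ran from -0.80 to -0.50 in CD4 cells, passing in 4 of 12 fits, and from -0.66 to -0.47 in CD8 cells. Between gut and spleen it ran from -0.92 to -0.62 in CD4 and from -1.21 to -0.85 in CD8 cells.

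The labels do not say that libraries of 1 number share a pool. Deviations of same-numbered libraries from their group means correlated above 0.1 in 8 of 15 pairs of CD4 with CD8 (median r 0.18), in 7 of 12 pairs of liver with gut (median r 0.13) and in 9 of 12 pairs of genotypes (median r 0.30). In gut alone all 6 pairs of CD4 with CD8 (r from 0.19 to 0.44) and all 6 pairs of genotypes (r from 0.31 to 0.63) were above 0.1. In the comparisons that reach beyond gut not every pair was. As no label ties the numbers to a pool in any tissue, they were not taken to pair the libraries. With a replicate block TRAV9-2 was 0.22 between CD8 and CD4 cells (adjusted p = 0.0185), 0.40 in spleen (0.0465), and -0.64 between gut and liver in CD4 cells (0.00464), and no other call changed, those within gut included. No paired analysis was possible for gut or liver against spleen because the spleen titles carry no number, and their table columns share only number 1 with liver and gut. Read counts are not given, so what depth limits cannot be stated.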
